A study of Mus musculus with 36 samples.

Results

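Promoter regions marked by H3K9me3 in mouse liver are described here. The members were the 500-base bins of H3K9me3 peaks that lay on chromosomes 1 to 19, carried a promoter annotation and sat at most 1000 bases from the nearest annotated transcription start site. Across the 6 deposited tables, 104694 of 765166 autosomal bins met this rule. In each table the promoter bins made up 12.1% to 16.2% of the autosomal bins, that is 16289 to 19167 bins. The exact (Clopper-Pearson) 95% binomial intervals ran from 11.9% to 12.2% at the lowest share and from 16.0% to 16.4% at the highest, and cover counting error only.

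H3K9me3 was measured by chromatin immunoprecipitation and sequencing (ChIP-seq) of whole liver from the offspring of dams fed a Western-style diet (maternal obesity, MO) or a control chow before mating, through pregnancy and while nursing. Per the study, the mice included floxed littermates used as controls, from a Reg3g fl/fl colony on C57BL/6J. The sires were C57BL/6J males of the wild type. The offspring were Reg3g fl/+ or Reg3g fl/fl, and which library came from which genotype is not given in the sources used here. There were 8 groups of 4 mice: control females (CF), control males (CM), MO females (MF) and MO males (MM), each at 3 weeks, before weaning, or at 8 weeks, after a further period on chow. The 32 ChIP libraries were accompanied by 4 input libraries that have no column in these tables, so the levels below have no input background subtracted. For each sex, 1 table covered the controls at both ages, 1 covered MO and control mice at 3 weeks and 1 covered MO and control mice at 8 weeks, with 8 libraries per table. The 3 tables of a sex therefore share libraries. The only measurement used per bin was the log2 CPM (read counts scaled to the size of the library) averaged by the authors over the libraries of a table, so no spread between mice can be given, no difference below was tested, and the depth of each library is unknown. Bulk liver holds several cell types, and a larger share of marked cells cannot be told apart from more of the mark per cell.

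H3K9me3 is the histone mark of constitutive heterochromatin. It is written by the SUV39H and SETDB1 methyltransferases and read by HP1 proteins, and it is best known at repeats and at clusters of zinc finger genes, where KRAB zinc finger proteins and their partner TRIM28 bring the writers. At promoters it is known from genes that stay silent in somatic cells, such as genes of the germ line and the silent parental copy of imprinted genes. Most other active promoters are CpG-rich and carry little of the mark.

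Among promoters, many germline and imprinted genes had high levels of the mark, and hepatocyte genes lay at the low end. The bases upstream of 7 of the high genes are printed first so that their CpG content and short motifs can be set beside the levels. They are the 5 highest germline genes, the imprinted gene Peg3, which has the highest level of its list, and Zdbf2, chosen after its letters were seen because it holds 3 copies of 1 motif. Each sequence is the 250 bases before the start site in the RefSeq annotation of GRCm38.p6 (mm10), written 5′ to 3′ on the strand of the gene. Capitals mark 3 short motifs, searched on both strands: CACGTG, an E-box that MAX and MGA bind, GCGGGAA, a core E2F6 site, and TGCCGC, the hexamer that the imprinting factor ZFP57 binds when methylated. A motif on the other strand appears in its reverse complement, and a match is a description of letters, not a site of binding. Ddx4, Sycp1, Dazl, Syce1 and Mael are germline genes. Syce1 and Peg3 hold none of the motifs, and neither does a second start of Zdbf2 that is not printed.
Ddx4 (chr13:112652311-112652560, minus strand): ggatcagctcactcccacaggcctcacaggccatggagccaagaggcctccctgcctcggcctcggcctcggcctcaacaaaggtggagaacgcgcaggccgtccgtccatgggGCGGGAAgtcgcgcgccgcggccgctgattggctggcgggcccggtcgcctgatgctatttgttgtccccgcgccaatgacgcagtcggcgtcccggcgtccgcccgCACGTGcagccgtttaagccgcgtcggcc
Sycp1 (chr3:102936101-102936350, minus strand): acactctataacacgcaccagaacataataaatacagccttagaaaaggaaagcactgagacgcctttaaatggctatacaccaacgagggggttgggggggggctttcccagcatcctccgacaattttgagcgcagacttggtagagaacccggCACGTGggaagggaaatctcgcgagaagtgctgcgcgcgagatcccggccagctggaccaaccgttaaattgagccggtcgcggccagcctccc
Dazl (chr17:50293621-50293870, minus strand): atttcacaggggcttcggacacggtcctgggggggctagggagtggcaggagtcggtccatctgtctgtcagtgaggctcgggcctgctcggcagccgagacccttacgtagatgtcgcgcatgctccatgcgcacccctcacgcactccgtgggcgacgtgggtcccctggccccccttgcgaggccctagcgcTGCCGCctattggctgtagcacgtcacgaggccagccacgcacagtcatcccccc
Syce1 (chr7:140787855-140788104, minus strand): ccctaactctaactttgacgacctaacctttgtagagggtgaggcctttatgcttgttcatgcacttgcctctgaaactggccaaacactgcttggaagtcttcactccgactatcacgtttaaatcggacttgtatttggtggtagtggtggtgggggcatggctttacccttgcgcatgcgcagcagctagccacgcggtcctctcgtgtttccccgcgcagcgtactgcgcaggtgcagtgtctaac
Mael (chr1:166238745-166238994, minus strand): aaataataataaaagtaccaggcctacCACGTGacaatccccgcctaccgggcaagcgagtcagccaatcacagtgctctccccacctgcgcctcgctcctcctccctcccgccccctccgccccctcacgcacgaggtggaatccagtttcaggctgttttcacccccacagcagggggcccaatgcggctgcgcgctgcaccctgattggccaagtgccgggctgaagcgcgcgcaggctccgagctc
Peg3 (chr7:6730420-6730669, minus strand): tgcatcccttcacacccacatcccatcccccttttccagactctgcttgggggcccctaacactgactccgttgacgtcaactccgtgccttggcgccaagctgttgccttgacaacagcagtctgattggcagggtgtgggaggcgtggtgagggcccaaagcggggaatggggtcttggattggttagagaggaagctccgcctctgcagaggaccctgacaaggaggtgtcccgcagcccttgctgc
Zdbf2 (chr1:63200108-63200357, plus strand): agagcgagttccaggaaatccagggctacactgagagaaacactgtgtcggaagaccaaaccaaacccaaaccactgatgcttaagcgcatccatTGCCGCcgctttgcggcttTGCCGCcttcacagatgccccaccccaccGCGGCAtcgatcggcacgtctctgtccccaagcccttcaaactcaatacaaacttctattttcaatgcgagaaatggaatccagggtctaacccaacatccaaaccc

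For comparison, the same stretch is shown for 3 hepatocyte genes, chosen after their letters were seen as the richest and the 2 poorest in CpG among the hepatocyte genes whose stretch was read. Cebpb encodes a transcription factor and is rich in CpG, Hnf4a encodes a master regulator of hepatocytes, and Apoa1 the main protein of high-density lipoprotein. Cebpb holds 1 GCGGGAA, and the other two hold none of the motifs.
Cebpb (chr2:167688665-167688914, plus strand): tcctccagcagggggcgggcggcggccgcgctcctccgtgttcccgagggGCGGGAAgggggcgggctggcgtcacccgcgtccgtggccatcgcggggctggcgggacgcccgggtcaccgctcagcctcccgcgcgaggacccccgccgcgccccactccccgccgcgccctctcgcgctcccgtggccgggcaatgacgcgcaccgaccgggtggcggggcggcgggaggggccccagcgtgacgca
Hnf4a (chr2:163506607-163506856, plus strand): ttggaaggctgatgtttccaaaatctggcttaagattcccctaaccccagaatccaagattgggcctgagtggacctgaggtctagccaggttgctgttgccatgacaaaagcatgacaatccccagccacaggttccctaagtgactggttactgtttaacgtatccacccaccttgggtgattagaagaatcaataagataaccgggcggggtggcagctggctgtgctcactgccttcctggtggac
Apoa1 (chr9:46228380-46228629, plus strand): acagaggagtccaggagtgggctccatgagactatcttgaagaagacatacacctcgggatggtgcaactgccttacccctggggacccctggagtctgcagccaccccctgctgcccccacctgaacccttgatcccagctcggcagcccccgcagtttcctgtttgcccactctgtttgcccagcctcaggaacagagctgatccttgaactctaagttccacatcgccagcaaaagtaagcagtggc

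The 250 bases upstream of Ddx4 held 31 CpG dinucleotides, those of Syce1 held 13 and those of Peg3 held 8. Cebpb held 41, Hnf4a 3 and Apoa1 4. The genes shown were chosen in part for these letters, so no order of CpG content is read from them. In windows from 250 bases before to 50 after the start site, CACGTG was present at 13 of 38 germline genes with an entry (34.2%), beside 2088 of all 25748 autosomal genes in the table (8.11%). GCGGGAA was present at 11 of the germline genes (28.9%), beside 5.34% of all genes. Both motifs stood together at 5 of the germline genes (13.2%) and at 0.517% of all genes. TGCCGC was found at 12 of 35 imprinted genes (34.3%) and at 13.1% of all genes. Other lists also had shares above those of all genes. TGCCGC was found at 7 of 22 genes of the H3K9 methylation machinery (31.8%) and GCGGGAA at 4 of 19 histone genes (21.1%). CACGTG was found at 5 of 25 Hox genes (20.0%). Among the 74 of the 100 highest genes that had an entry, the shares were 20.3% for CACGTG, 14.9% for GCGGGAA and 24.3% for TGCCGC. Among 28 hepatocyte genes, CACGTG was found at 2. The other two motifs were found at 2 (GCGGGAA) and 1 (TGCCGC) of these genes. 

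The promoter bins clustered on the start site itself. Between 45.1% and 53.8% of them overlapped the start site, 51802 bins in all. A further 23.9% to 25.9% lay 1 to 500 bases downstream and 8.75% to 11.0% lay 1 to 500 bases upstream. The outer positions, 501 to 1000 bases away, held 7.83% to 11.0% of the bins downstream and 4.89% to 7.25% upstream. The bins thus fell on the transcribed side of the start more often than on the upstream side in all 6 tables.

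The H3K9me3 level was likewise highest over the start site. Here the level of a bin is its log2 CPM minus the median log2 CPM of all autosomal bins in the same table, which was 2.03 to 2.74, or 4.10 to 6.67 CPM. Among bins of full length (501 bases), those over the start had a median level of 0.04 to 0.16, and those 1 to 500 bases downstream had 0.03 to 0.13. Full-length bins 501 to 1000 bases upstream had a median of −0.09 to −0.05, below the table median in every table. The range over tables is a range over sets of 8 libraries, not a spread between mice.

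**Figure D1:**
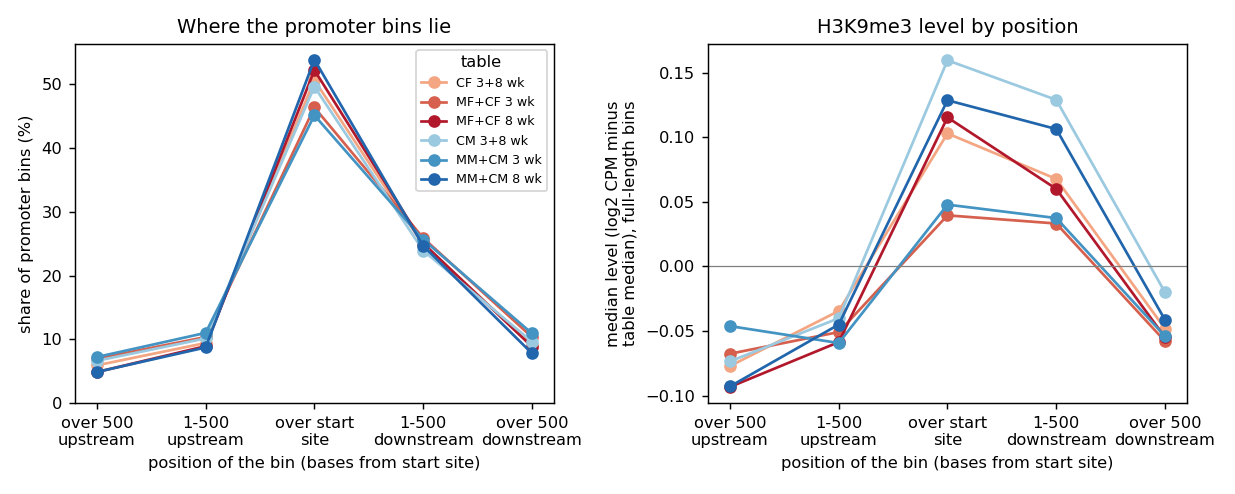
The left panel plots the share of promoter bins (%) and the right panel the median level of full-length bins (log2 CPM minus the table median) against position relative to the start site, with 1 line per table. Bins over the start site hold 45.1% to 53.8% of each table, and their median level is 0.04 to 0.16.

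Promoter bins came from longer peaks than other bins as a whole. The median length of the peak that held a promoter bin was 1158 to 1266 bases, beside 725 to 790 bases for other bins. Outer promoter bins, 1 to 3 kb from a start, were alike in this, with medians of 1004 to 1369 bases that exceeded those of the promoter bins in 3 of 6 tables. Peaks of a single bin made up 16.8% to 19.6% of the promoter bins and 35.5% to 37.8% of the others. Each peak is listed with 1 bin, and how that bin was chosen is not given in the sources used here. A gene can therefore be represented by different bins of the same peak in different tables, and a promoter inside a long peak can be listed through another gene. Whether the choice depended on the comparison of the table was not tested, and all levels and differences below rest on the listed bins.

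The sequence under the promoter bins differed from that of the rest. Their median GC content was 57.7% to 61.2%, beside 53.1% to 54.7% in bins of gene bodies and 53.1% to 54.5% in intergenic bins. The median ratio of observed to expected CpG was 0.44 to 0.60, beside 0.24 to 0.29 in outer promoter (1 to 3 kb), gene body and intergenic bins. A median of 4.59% to 5.02% of the bases of a promoter bin was soft-masked as repeat, beside 8.61% to 9.78% in outer promoter bins, 9.93% to 10.4% in gene body bins and 25.0% to 34.7% in intergenic bins. Within full-length promoter bins, which were 72.4% to 75.5% of the set, the level rose with both base measures. The quintile of these bins lowest in GC had a median level of −0.15 to −0.09 and the highest quintile 0.11 to 0.28. For the CpG ratio, the lowest quintile had −0.11 to −0.07 and the highest 0.08 to 0.25. The GC dependence of sequencing yield was not measured here, and its part in these orders was not tested.

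The level of promoter bins as a whole was close to that of other bins. Their median log2 CPM was 2.04 to 2.81 per table, and it exceeded the median of the other autosomal bins by 0.057 ± 0.036 (mean and SD over 6 tables that share libraries). Counted per kilobase of bin, the difference turned to −0.060 and was below 0 in all 6 tables. Within full-length bins it was 0.073. Strong bins were rarer at promoters than in the other bins as a whole. Levels over 1, meaning more than 2-fold above the table median, were found at 0.105% to 0.778% of the promoter bins and at 0.251% to 2.42% of the other bins. Outer promoter bins were close to the promoter bins, with 0.149% to 0.997%. In all, 432 promoter bins passed this mark.

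A promoter bin was found for 16638 gene symbols in at least 1 table and for 8380 in all 6. Of the symbols, 10282 appeared in all 3 female tables, 10838 in all 3 male tables and 1091 in a single table. For 53 bins no symbol was given. Matched to the GENCODE M21 annotation, 14819 of 20807 autosomal protein-coding genes had a promoter bin in some table (71.2%) and 8001 had one in all 6 (38.5%). When a start site anywhere inside a peak was counted instead, these shares were 69.8% and 51.5%. A promoter bin is thus the usual state of a gene in these tables and does not by itself set a gene apart. The level of a gene in a table was that of its highest promoter bin, so genes with several bins can rank higher. The mean level of a gene over its tables had a median of 0.08, and 5% of genes lay above 0.47. Of 16615 genes, 51 had a mean level over 1 (0.307%).

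The 10 genes with the highest mean log2 CPM among those present in all 6 tables were Taco1, AU041133, Zfp930, Ddx4, Pdzd8, Ankrd50, Or6d12, Ptchd3, Sycp1 and Dazl. Taco1 encodes an activator of mitochondrial translation. Its log2 CPM was 6.21, 5.51 and 6.37 in the CF, 3-week female and 8-week female tables and 6.08 and 5.40 in the CM and 3-week male tables. In the 8-week male table it was 2.82. The high values came from a bin at the end of a short peak, 450 or 477 bases downstream of the start (chr11:106066511-106066865 in females), whereas the 8-week male table listed the neighbouring bin over the start (chr11:106066038-106066538). The low value is therefore that of another stretch of the same peak.

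Among the germline genes, Ddx4, an RNA helicase of germ cells, had levels of 1.50, 1.32 and 1.61 in the CF, 3-week female and 8-week female tables and 1.80, 1.31 and 1.93 in the corresponding male tables. Its bins lay at or within 95 bases of the start (chr13:112651791-112652291 in females). Every table placed Ddx4 more than 2-fold above the median bin. Sycp1, which builds the synaptonemal complex of meiotic chromosomes, had levels of 1.22, 0.96 and 1.51 in females and 1.63, 0.97 and 1.75 in males. In each sex both genes were lowest in the 3-week table, although the listed bin was not the same in all tables of a sex. Strong promoter bins as a whole were fewest in these tables, with levels over 1 at 0.105% (females) and 0.130% (males), beside 0.315% to 0.778% in the other 4. Dazl, an RNA-binding protein of germ cells, had levels of 1.78, 1.24 and 0.58 in females and 2.00, 1.29 and 0.81 in males. Its 8-week values came from other bins (chr17:50292753-50293253 in females) than those of the remaining tables, so the ages are not comparable for this gene.

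Zfp930 encodes a zinc finger protein, and its single-bin peak lay at −254 (females) or −286 (males) bases from the start, the sign marking the upstream side. Its levels were 1.47, 1.25 and 1.84 in females and 1.71, 1.30 and 1.96 in males. Zfp442, another zinc finger gene, reached a mean level of 2.08 over 5 tables, but 70.5% of the bases of its female bin were soft-masked as repeat. Pdzd8, a tether between endoplasmic reticulum and other organelles, had levels of 1.44, 1.20 and 1.52 in females and 1.94, 1.14 and 1.97 in males. Its female bin held 80 CpG in 501 bases. Ptchd3, known from male germ cells, and the olfactory receptor gene Or6d12 had mean levels of 1.38 and 1.49. The base composition of these bins ranged from 48.3% GC at Zfp930 to 77.8% at Pdzd8 in females. A high level was thus found over a wide range of GC content.

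**Figure D2:**
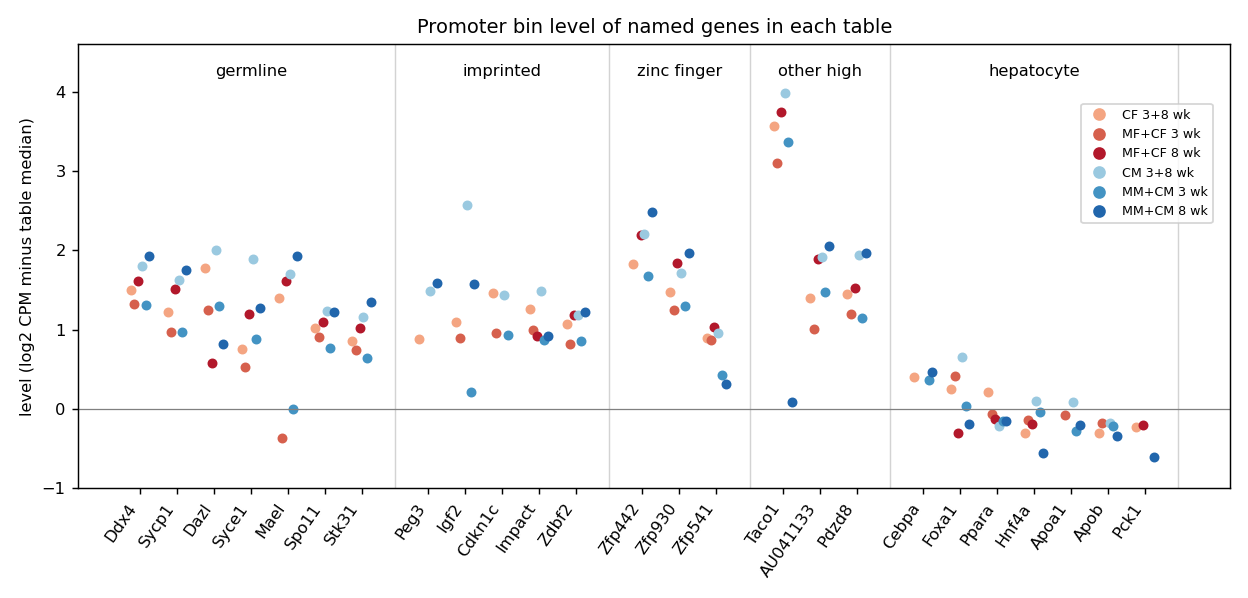
Each point is the level (log2 CPM minus the table median) of the highest promoter bin of a named gene in 1 table, coloured by table. Ddx4 lies between 1.31 and 1.93 in all 6 tables and Taco1 between 3.11 and 3.98 in 5 tables, with 0.08 in the 8-week male table, where another bin is listed, whereas Apoa1 lies between −0.28 and 0.09.

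The gene lists were then read against all genes. All 47 germline and meiosis genes of the list had a promoter bin (100%, exact interval from 92.5%), and 33 had one in all 6 tables (70.2%), beside the 71.2% and 38.5% of protein-coding genes given above. A start site lay inside a peak of every table at 43 of the 47 (91.5%), beside 51.5%. The median of their mean levels was 0.27, beside 0.08 over all genes, and 0.35 in full-length bins. Over the genes present in all 6 tables, which make up more of this list than of all genes, the median was 0.17. Of the 47 genes, 19 lay above the mark that 5% of all genes exceeded and 6 had a mean level over 1: Ddx4, Sycp1, Dazl, Syce1, Mael and Spo11. Syce1 is another component of the synaptonemal complex, Mael acts in the silencing of transposons, and Spo11 makes the DNA breaks of meiosis. The 100 genes with the highest levels, among 8383 in all 6 tables, included 12 of the 33 of this list. The list was not uniform, since Stra8 and Dppa3, regulators of meiotic entry and of the early embryo, had mean levels of −0.33 over 1 table and −0.16 over 5 tables.

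Imprinted genes had the higher median. A promoter bin was found for 42 of 45 (93.3%), the exceptions being Snrpn, Ndn and Dcn, and for 19 of 45 in all 6 tables (42.2%). Of protein-coding genes, 71.2% had one in some table and 38.5% in all 6, so the latter share was near that of the list. Counted by start sites inside peaks of every table, the number was 36 (80.0%), beside 51.5% of protein-coding genes. Their median level was 0.46, and 0.57 in full-length bins. Among them, 21 lay above the mark that 5% of all genes exceeded, and 5 exceeded 1. These were Peg3, a zinc finger gene expressed from the paternal copy, with 1.32 over 3 tables, the growth factor gene Igf2 with 1.27 over 5, the cell cycle inhibitor gene Cdkn1c with 1.19 over 4, and Impact and Zdbf2 with 1.08 and 1.06 over 6. Zdbf2 had levels of 1.08, 0.82 and 1.18 in females and 1.19, 0.86 and 1.22 in males. The 3-week male value of Zdbf2 came from a different start site (chr1:63272931-63273431) than the others (chr1:63199989-63200489 in females), so the similar values belong to separate regions of the gene. The 100 highest of the 8383 genes included 6 of the 19 of this list. H19 had a promoter bin in 1 table, at a level of 0.12.

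Zinc finger genes, which are otherwise known for heavy H3K9me3 over their 3′ ends, had levels close to the rest at their start sites. A promoter bin was found for 327 of 483 (67.7%) and in all 6 tables for 157 (32.5%), beside 71.2% and 38.5% of protein-coding genes. A start site lay inside a peak of some table at 299 (61.9%, beside 69.8%) and of every table at 187 (38.7%, beside 51.5%). Their median level was 0.10, and 2 genes exceeded 1, Zfp442 and Zfp930. Zfp541, known from the testis, came next with 0.75. Vomeronasal and olfactory receptor genes were rarely listed, with 171 of 1976 (8.65%, beside 71.2%) and a median level of 0.01. Of the 1976, 1472 are annotated as protein-coding, whereas the background holds protein-coding genes alone. After Or6d12, Or2w6 and Or10am5 were highest with 0.65 and 0.59. Of the clustered protocadherin genes, 41 of 58 had a promoter bin (70.7%), 4 of them in all 6 tables, and the median level of 0.51 was the highest of the 15 lists over bins of all lengths. In full-length bins it was 0.53, below the 0.57 of imprinted genes. Pcdhga6 led with 1.35 over 3 tables, and Pcdha2 and Pcdha12 followed with 1.29 and 1.16 in 1 table each. A start site lay inside a peak of some table at 25 of the 58 (43.1%), beside 69.8% of protein-coding genes, and inside a peak of every table at 23 (39.7%), beside 51.5%, so the count depends on how a marked promoter is defined.

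Genes that are silent in liver for developmental reasons had bins of ordinary level. All 54 lineage transcription factor genes had a promoter bin (100%, exact interval from 93.4%), 18 in all 6 tables (33.3%), with a median level of 0.10. Of protein-coding genes, 71.2% had a bin in some table and 38.5% in all 6. Every one of the 54 had a start site inside a peak in all 6 tables, beside 51.5% of protein-coding genes. Nkx2-5, Isl1 and Gata3, factors of heart, islet and motor neuron, and T cell lineages, led with 0.64 over 3 tables, 0.58 and 0.49. None exceeded 1. The Hox genes, which pattern the body axis, behaved alike, with bins at 41 of 43 (95.3%), 14 of them in all 6 tables (32.6%). A start site lay inside a peak of every table at 41, and the median level was 0.09. Hoxc10 was highest with 0.84 over 3 tables, followed by Hoxd3 with 0.38 over 6 and Hoxd12 with 0.29 over 3. Both lists thus combined near-complete coverage, by bins in some table and by start sites in every table, with levels close to the median of all genes. Listed bins in all 6 tables were less frequent than among protein-coding genes.

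**Figure D3:**
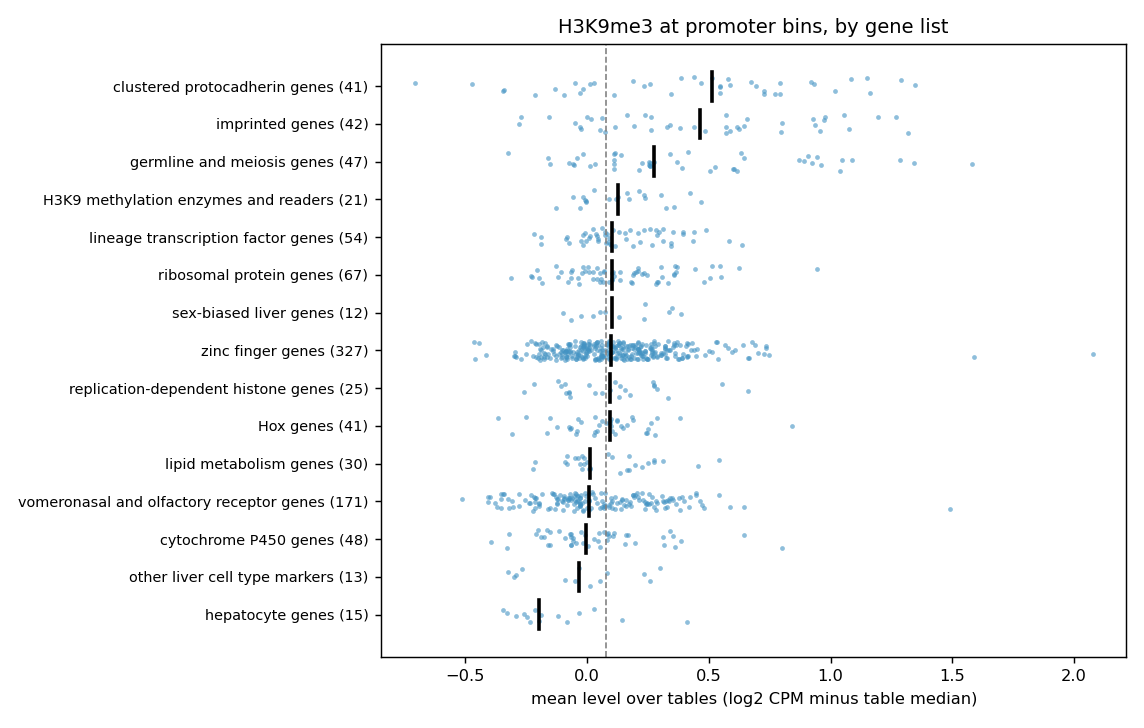
Each point is a gene with a promoter bin, placed at its mean level over tables (log2 CPM minus the table median), by gene list, with the number of genes in brackets. Black bars mark list medians, from −0.20 (hepatocyte genes) to 0.51 (clustered protocadherin genes), and the dashed line marks the median of all genes at 0.08.

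Hepatocyte genes lay at the other end. A promoter bin was found for 15 of 34 (44.1%, exact interval 27.2% to 62.1%) and in all 6 tables for 4 (11.8%), beside 71.2% and 38.5% of protein-coding genes. By start sites inside peaks the numbers were 14 (41.2%) in some table and 10 (29.4%) in all 6, beside 69.8% and 51.5%. The genes without one included Alb, Ttr, Fga, Fgb, Fgg and Serpina1a, which encode plasma proteins, Cps1 of the urea cycle, Cyp7a1 of bile acid synthesis and Cyp3a11 and Cyp2e1 of drug metabolism. The 15 with a bin had a median level of −0.20, and 3 lay above 0: Cebpa, Foxa1 and Cebpb, all transcription factor genes, with 0.41 over 3 tables, 0.14 over 6 and 0.03 over 4. The rest, among them Ppara, Apoa1, Hnf4a, Apoc3, Apob and Ass1, ranged from −0.03 at Rbp4, the carrier of retinol, to −0.35 at Pck1, the entry enzyme of gluconeogenesis. Hnf4a had levels of −0.31, −0.14 and −0.19 in females and 0.11, −0.04 and −0.56 in males, from different start regions of the gene. These levels sit at the low end of bins that the authors had already called as peaks. The median CpG ratio of the bins of this list was 0.36, beside 0.61 for protein-coding genes, and its part in the low levels was not tested.

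Markers of the other liver cell types had bins at 13 of 19 genes (68.4%), near the 71.2% of protein-coding genes, with a median level of −0.03. Kdr and Stab2 of endothelial cells and Epcam of bile duct cells were highest, with 0.30, 0.26 and 0.23. Other markers of the same cells were below 0, namely Clec4g and Lyve1 of endothelial cells with −0.03 and −0.30, and Krt7, Krt19 and Sox9 of bile duct cells with −0.05, −0.09 and −0.32, so neither cell type stood out. Liver genes expressed differently between the sexes had bins at 12 of 29 (41.4%, beside 71.2%), with a median level of 0.10. Cyp7b1, of the alternative bile acid pathway, Acot3, a peroxisomal thioesterase, and the estrogen receptor gene Esr1 led this list with 0.38, 0.35 and 0.34. Esr1 had levels of 0.47, 0.45 and 0.27 in females and 0.43, 0.12 and 0.28 in males, so the 2 sexes overlapped.

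The shares in this paragraph stand beside 71.2% of protein-coding genes in some table and 38.5% in all 6. Genes of lipid metabolism had bins at 30 of 35 (85.7%), 21 of them in all 6 tables (60.0%), with a median level of 0.01. Hmgcs1, an enzyme of cholesterol synthesis, and Mlxipl, a carbohydrate-sensing factor, were among the highest with 0.54 and 0.31. The fatty acid transporter gene Cd36 had no promoter bin. Genes of the H3K9 methylation machinery had bins at 21 of 24 (87.5%), 14 in all 6 tables (58.3%), with a median level of 0.13. Atf7ip, a partner of SETDB1, Ehmt1, which writes H3K9me2, and Jmjd1c led with 0.47, 0.42 and 0.36. Ribosomal protein genes had bins at 67 of 81 (82.7%) and a median level of 0.10, and their highest member, Rpl10l with 0.94, is the testis copy that also stands on the germline list. Rpl27a and Rpl19 followed with 0.62 and 0.55. Cytochrome P450 genes, of which 98 of 129 are protein-coding, had bins at 48 (37.2%) with a median of −0.00. The pseudogene Cyp4b1-ps2 and the antisense RNA gene Cyp4x1os led them with 0.80 and 0.64, ahead of Cyp7b1. Replication-dependent histone genes, of which 67 of 70 are protein-coding, had bins at 25 (35.7%) with a median of 0.09, and H2ac1, H2bc1 and H1f2 were highest with 0.66 over 4 tables, 0.55 over 2 and 0.33 over 6. None of the lipid, hepatocyte, sex-biased or H3K9 genes was among the 100 highest.

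Promoter peaks were shared between tables more often than other peaks. For each ordered pair of tables, the share of bins that a peak of the other table covered was higher for promoter bins than for all other bins pooled in 30 of 30 pairs. Outer promoter bins were slightly above promoter bins from the CM (95.65% beside 95.62%) and 8-week male tables (96.4% beside 96.0%) to the 3-week male table. In the remaining pairs they were below. Within a sex, where tables share libraries, 80.4% to 98.6% of promoter bins were covered, beside 57.9% to 97.0% of other bins. Between the sexes, where no library is shared, 76.3% to 92.0% of promoter bins and 55.6% to 81.3% of other bins were covered. Promoter peaks were the longer ones, as given above. Among peaks of a single bin, the promoter share was the higher in 24 of the 30 pairs.

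**Figure D4:**
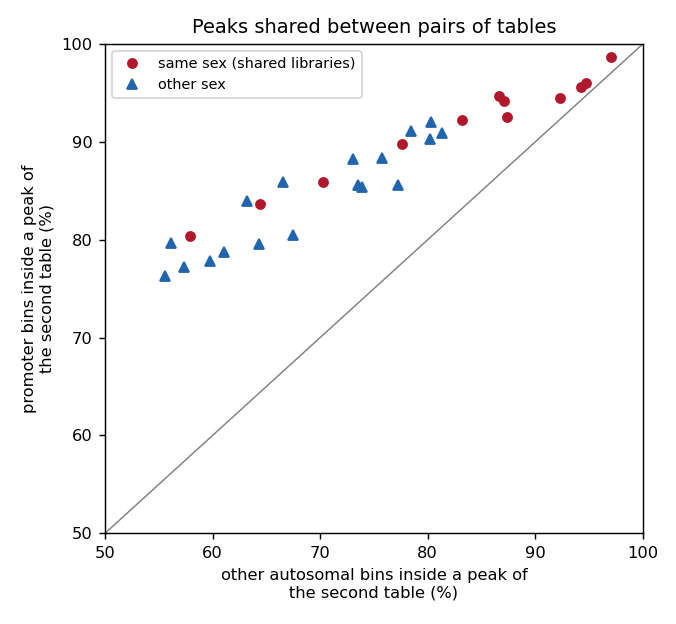
The plot compares, for ordered pairs of tables, the share (%) of promoter bins and of other bins that a peak of the second table covers. All 30 points lie on the promoter side, with promoter shares from 76.3% to 98.6%.

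Within a sex, peaks listed at 1 age but not at the other were fewer at promoters than elsewhere. Peaks were merged per sex before counting, so a peak that a table lacks need not have been absent at that age. The lowest listed promoter bin had 1.76 (3 weeks) and 1.94 (8 weeks) log2 CPM in females, and 1.31 and 2.03 in males. In females, 2415 promoter bins of the 3-week table (14.1%) had no overlapping peak in the 8-week table, beside 29.8% of other bins. In the reverse direction, 1222 bins (7.50%) of the 8-week table had none at 3 weeks, beside 12.6%. In males the numbers were 3755 (19.6%, beside 42.1%) and 656 (3.99%, beside 5.27%). The promoter bins listed at 3 weeks alone were poor in CpG, with a median observed to expected ratio of 0.25 in each sex. The remaining 3-week promoter bins had 0.55. Bins listed at 8 weeks alone had 0.59 in females, beside 0.58 in the remaining bins, and 0.78 in males, beside 0.59. The bins of 1 age had median levels of −0.12 to −0.11, and the remaining promoter bins had 0.04 to 0.09.

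By gene, the female 3-week table had 753 of 12505 (6.02%) with promoter bins listed at 3 weeks alone. The male one had 1076 of 13393 (8.03%). Both sexes shared 182 of them, 24.2% of the female list and 16.9% of the male list. The following names were chosen after their values were seen. They included Trf, encoding transferrin, Serpina1e, a plasma protease inhibitor, Scp2, a sterol carrier, Xdh, xanthine dehydrogenase, and Cd3d and Cd3e of the T cell receptor complex. At 8 weeks alone there were 609 genes in females (4.89% of the table) and 365 in males (2.88%). Both sexes shared 54, which is 8.87% of the female list and 14.8% of the male list. They included the deacetylase gene Sirt1, the heme oxygenase gene Hmox1, the apolipoprotein gene Apoc1 and Mphosph8, a reader of H3K9me3. Each set was the minority of its table.

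Promoter peaks of the diet tables that the control tables lacked were also few. At 3 weeks, 1754 female promoter bins (10.2%) and 1024 male ones (5.34%) had no peak in the control table of the sex, beside 22.4% and 13.4% of other bins. At 8 weeks the numbers were 951 (5.84%, beside 12.9%) and 223 (1.36%, beside 2.99%). By gene, this group held 560 in females (4.48% of the table) and 242 in males (1.81%) at 3 weeks, of which 32 were shared (5.71% and 13.2% of the lists). At 8 weeks it held 372 (2.98%) and 121 (0.953%), of which 5 were shared (1.34% and 4.13%). Those 5 were Klf6, Mir5098, Mrps14, Pomgnt2 and Sugct, named after their values were seen. In the other direction, 0.976% of CF promoter bins and 1.78% of CM promoter bins had no peak in either diet table, beside 1.94% and 3.45% of other bins. A diet table includes the control mice of its age, so a peak outside the control table need not be one of MO mice. Since peaks were merged per sex, it need not have been absent in control mice either.

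The difference between the ages was then read from bins with the same coordinates in the 3-week and 8-week diet tables of a sex. Each value is an average over 4 MO and 4 control mice, and the median difference over all autosomal bins compared (0.22 in females, 0.63 in males) was subtracted. In females, 9113 promoter bins were compared among 71972 bins. Their median difference, 8 weeks minus 3 weeks, was 0.06, with 0.11 over the start site and 0.00 beside it. In males, 9129 of 68657 bins were promoter bins, with a median of 0.12, of which 0.17 over the start and 0.05 beside it. Outer promoter bins had −0.07 and −0.06, and gene body bins −0.03 in each sex. The promoter value was thus higher than that of the other classes in both sexes, against a spread over promoter bins of 0.25 and 0.28 (SD).

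The age difference followed base composition and signal. From the lowest to the highest quintile of CpG ratio, the promoter median went from −0.09 to 0.17 in females and from −0.08 to 0.27 in males. Other bins of the same CpG classes went from −0.06 to 0.24 and from −0.08 to 0.24. When promoter bins were set against all bins of like GC and signal, within deciles of each, the medians were −0.01 in females and 0.01 in males. The 2 ages come from separate sets of libraries, so age and any difference between those sets cannot be told apart.

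**Figure D5:**
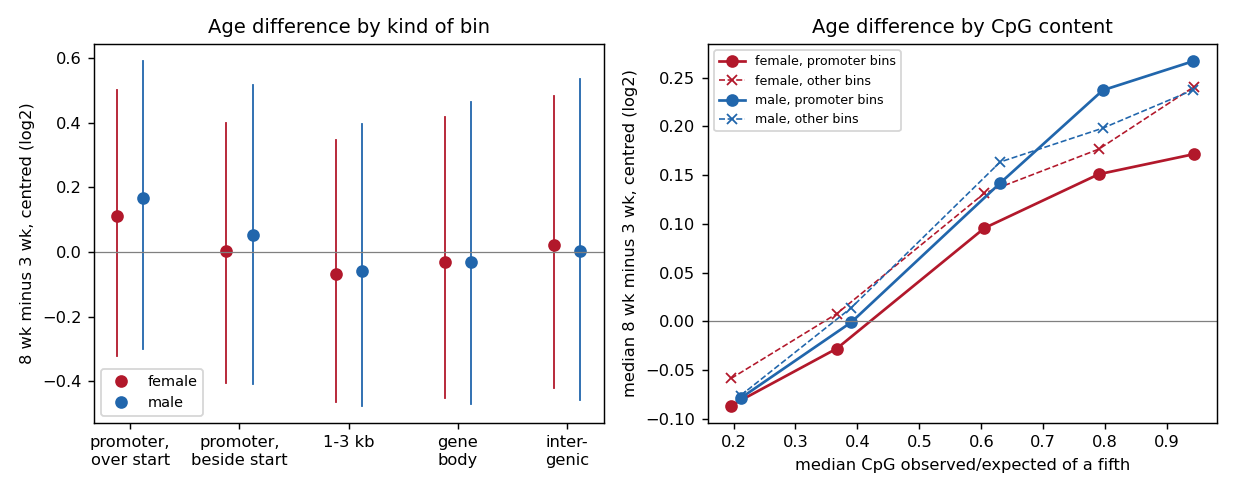
The left panel plots the median difference (8 weeks minus 3 weeks, log2, centred on all bins) by class of bin, with lines from the 5th to the 95th percentile, and the right panel the median against the CpG ratio of each quintile for promoter bins (solid) and other bins (dashed). Promoter bins over the start have medians of 0.11 in females and 0.17 in males, and in both classes of bin the median rises with the CpG ratio.

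Large age differences were rare. In females 1 promoter bin passed 1 in either direction, beside a background of 0.0375% of all bins compared. It lay over a start of Dlgap1, a scaffold of synapses, and went from 2.51 to 3.89 log2 CPM (centred difference 1.17). In males 5 promoter bins passed 1, beside 0.239% of all bins. They belonged to the potassium channel gene Kcnv2 (2.38 to 4.61 log2 CPM), Dnajc5, a synaptic vesicle chaperone, Prr23a2, Zmiz1 and Ccdc7b. All 5 were higher at 8 weeks, and the bin at Ccdc7b was soft-masked along its whole length. Against bins of like GC and signal, Kcnv2 had 1.30 and the other 4 had 0.71 to 0.86, and Dlgap1 in females had 0.91. At a lower mark of 0.5, 348 female promoter bins (3.82%) were higher at 8 weeks, beside 3.47% of all bins, and 131 (1.44%) were lower, beside 2.78%. In males, 773 (8.47%) were higher, beside 5.43%, and 137 (1.50%) were lower, beside 3.47%.

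At the level of genes, 4893 could be compared in both sexes, and 3089 had the same sign, 2409 higher and 680 lower at 8 weeks. The bin of a gene need not lie at the same start in the 2 sexes. Over these genes the median was above 0 in both sexes, 0.10 in females and 0.15 in males. The 6 highest means over the sexes belonged to Thap1, a zinc-dependent DNA-binding factor, Rprl1, an RNA of the RNase P family, Dnajc5, AU041133, the integrin gene Itgad and Stpg4. Thap1 went from 2.97 to 3.95 log2 CPM in females and from 2.61 to 4.08 in males, a centred difference of 0.76 and 0.84. AU041133 went from 3.41 to 4.51 in females and from 3.51 to 4.79 in males, a centred difference of 0.89 and 0.65. Matched for GC and signal, Thap1 had 0.51 and 0.55 and AU041133 had 0.73 and 0.38. The bin of Rprl1 was 54.3% soft-masked in females. The 6 lowest were Stat5a, Nsmaf, Naaladl1, Srgap3, Gstm6 and Tbc1d16. Stat5a, a transducer of growth hormone signals in liver, went from 2.70 to 2.21 log2 CPM in females, a centred difference of −0.71. In males it went from 2.44 to 2.65, which is −0.42 after centring, so the direction in males rests on the centring. The same held in males for the other 5 of these genes. Against bins of like GC and signal, Stat5a had −0.60 in females and −0.28 in males. Tbc1d16 was read at different start regions (chr11:119222888-119223388 in females and chr11:119228037-119228537 in males). Past 0.5 in both sexes there were 43 genes that were higher and 1 that was lower, Nsmaf, an adaptor of a tumour necrosis factor receptor.

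All 7 imprinted genes compared in both sexes were higher at 8 weeks in both: Inpp5f, Gnas, Nap1l5, Plagl1, Usp29, H13 and Mest. Their median differences were 0.26 in females and 0.18 in males, beside 0.10 and 0.15 over all genes compared. Over all imprinted bins compared in 1 sex, 14 of 17 were higher in females and 20 of 20 in males. Inpp5f, of which a short brain transcript is imprinted, went from 2.64 to 3.51 log2 CPM in females and from 2.74 to 3.85 in males (centred 0.65 and 0.48). Against bins of like GC and signal, Inpp5f had 0.41 in females and 0.19 in males. Plagl1 and Usp29 turned to −0.16 and −0.01 in males by this measure. Of 15 germline genes compared in both sexes, 9 were higher in both and 2 were lower in both, beside 2409 and 680 of the 4893 genes, with medians of 0.16 in females and 0.46 in males. Stk31, a kinase of germ cells, went from 3.15 to 3.64 in females and from 2.67 to 4.08 in males (centred 0.27 and 0.78). Matched for GC and signal, it had 0.03 and 0.48. Against bins of like GC and signal the germline medians were −0.02 and 0.24. Over all germline bins compared in 1 sex, the medians were 0.18 in females (36 bins) and 0.24 in males (23 bins). Matched for GC and signal, these were 0.05 and 0.11, so the male value depends on the genes included. Lipid metabolism genes gave medians of −0.07 and 0.18 over 15 genes, and −0.12 and 0.02 against bins of like GC and signal.

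The effect of maternal diet could be derived from the 3 tables of a sex, since the sum of both diet tables less the control table leaves the MO mice averaged over both ages. This MO minus control difference was centred on all autosomal bins compared. Its median at promoters was −0.08 in females (7587 bins) and −0.04 in males (7295 bins), with an SD over bins of 0.23 in each sex. Outer promoter bins had −0.02 and −0.03, gene body bins −0.01 and −0.01, and intergenic bins 0.03 and 0.02. No promoter bin passed 1 in either sex, beside 0.0016% of all bins in females and 0.00166% in males. Past 0.5, 267 female promoter bins (3.52%) were lower in MO mice, beside 1.61% of all bins and 2.34% of outer promoter bins, and 44 (0.580%) were higher, beside 0.935%. In males, 200 (2.74%) were lower, beside 1.62% and 2.40%, and 56 (0.768%) were higher, beside 1.18%. Before centring the median was −0.34 in females and 0.42 in males, so the direction is relative to the other bins of the sex. In bins of signal above the median, the centred promoter median was −0.15 in females and −0.11 in males. Unlike the age difference, the diet difference was not set against bins of like GC and signal, so the part of these was not tested.

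Of 3887 genes with a diet difference in both sexes, 2148 had the same sign, 574 higher and 1574 lower in MO mice. Over these genes the median was below 0 in both sexes, −0.10 in females and −0.06 in males. Whether the signs were shared more often than in unrelated values was not tested. The 4 lowest were Depdc5, a brake on mTORC1, Impdh1, of guanine nucleotide synthesis, Atg4b, an autophagy protease, and Osbpl3, an oxysterol-binding protein. Depdc5 had −0.70 in females and −0.57 in males. Osbpl3 had −0.56 and −0.57, and these were the 2 genes below −0.5 in both sexes. The 4 highest were Zfhx4, the sperm surface gene Adam2, the transporter gene Slc47a2 and the synaptic scaffold gene Shank2. Shank2 was read at different starts in the 2 sexes (chr7:144175333-144175833 in females and chr7:144417560-144418060 in males), and so was Impdh1. Zfhx4 had 0.52 in females and 0.36 in males, and no gene exceeded 0.5 in both. The 2 sexes share no library, but within a sex each value combines 3 table means and has no spread between mice.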

How the data were processed

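H3K9me3 ChIP-seq was performed by the authors on livers of 8 groups of 4 mice. Per the study's methods, reads were aligned with BWA to mm10 (GRCm38), broad peaks were called with MACS2, blacklisted regions were removed, peaks were merged per sex and longer ones cut into 500-base bins, reads were counted with featureCounts, and bins were annotated with ChIPseeker. The deposited log2 CPM of each bin is the authors' mean over the 8 libraries of a table. The deposited tables also hold the log2 fold changes, p-values and false discovery rates of the authors' own comparisons, which were not used. No value per library was used, so depth and spread between mice are unknown and no test was made.

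Here, bins within 1000 bases of a start site on chromosomes 1 to 19 were kept with Python 3.11.15, pandas 2.3.3 and numpy 2.4.6. Genes were matched to GENCODE M21 by gene identifier, then transcript, then symbol. Base content came from GRCm38, and upstream sequences from RefSeq (GRCm38.p6), with 250 bases printed. Tables were normalized separately, so each was centred on its autosomal median. Scripts were tested on simulated data. Named genes followed a rule: the 10 highest genes in all 6 tables, the 6 highest and 6 lowest for age, the 4 and 4 for diet, the 3 highest of each of 15 lists, and the hepatocyte genes with a bin. Some genes that this rule selects are not reported here. Genes named outside it were chosen after their values were seen: Syce1, Mael, Spo11, Stk31, Stra8, Dppa3, Clec4g, Lyve1, Krt7, Krt19, Sox9, Impact, Zdbf2, H19, Cd36, the list members without a bin and the genes named for age differences past 1, for single-age peaks and from the imprinted list by age. Members, lists and this rule were chosen with earlier results of these data known. Intervals are exact binomial and cover counting error only.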

Additional observations from a re-analysis of the deposited data

How the results depend on the processing

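The number of promoter bins, 104694, was 51802 over the start site alone, 159972 out to 3000 bases and 19221 in single-bin peaks. The excess of promoter over other bins turned to −0.060 per kilobase and was 0.095 in bins under 50% soft-masked. Of 8380 symbols in all 6 tables, 5180 kept overlapping bins, and 3341 kept bins overlapping by at least 50%. Over all annotated genes, a separate set, 15003 had a start site inside a peak of every table, an alternative chosen after seeing the data. Without centring, 15 female and 1677 male promoter bins passed 1 for age, and at a threshold of 0.5 the counts were 479 and 910. In single-bin peaks they were 0 and 0, within deciles of GC and signal 0 in females, and over the start site 2 in males. Within those deciles 4 male bins passed 1, and 1 of them, Kcnv2, was among the 5 named. Without centring, the age medians of 0.06 (females) and 0.12 (males) were 0.28 and 0.75. Within deciles of GC and signal they were −0.01 and 0.01, so the female sign turned, and in bins of signal above the median 0.12 and 0.17. For diet, 41 female and 13 male bins passed 1 without centring, 311 and 256 passed 0.5, and the medians of −0.08 and −0.04 were −0.34 and 0.42 without centring and −0.15 and −0.11 in bins of signal above the median. The median GC content of 59.5% was 63.1% over the start site, and the soft-masked median of 4.85% was 4.56% over the start site and 3.47% in single-bin peaks. The cause of these shifts was not tested, apart from the smaller or larger sets that the alternatives define. Counting a move as small when a count stayed within 1.5 times, or a median within 1 SD over promoter bins (0.25 and 0.28 for age, 0.23 for diet), 34 alternatives moved the values of the main comparisons and the germline count little, 25 moved them further and 1, the value per kilobase, turned the sign of a value larger than its SD. That limit is wide beside the age and diet medians and does not show that they are stable. For the other gene lists, 18 alternatives moved the number of genes with a bin by over 1.5 times and 24 did not. Bins over the start site lowered it from 171 to 27 for vomeronasal and olfactory receptor genes, from 41 to 18 for protocadherin genes and from 15 to 9 for hepatocyte genes, and start sites inside peaks gave 66, 25 and 14. No paired analysis was possible because the values used are means over the libraries of a table, and for the same reason no library could be left out.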

Other observations

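Chromosome 7 held the most promoter bins in all 6 tables (1442 to 1744) and chromosome 18 the fewest (440 to 521). Among the 5 named position classes, bins 501 to 1000 bases upstream were the least frequent in every table.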
